A study of Bos taurus with 4 samples.

Results

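The genes of MHC class I antigen presentation described here in bovine blastocysts were B2M, the peptide transporter subunits TAP1 and TAP2, the peptide editor TAPBP (tapasin) and the immunoproteasome subunits PSMB8, PSMB9 and PSMB10. Their members on the array were all bovine probes whose symbol in the platform annotation is 1 of these 7 genes, which gave 10 probes of 43794, with 2 probes each for B2M, TAP2 and PSMB10 and 1 for each of the other genes. The genes were chosen by their role in 1 pathway and with 11-over-14-month ratios of these same 4 arrays in view, above all a high ratio of B2M, so that the age ratios of the members below are a description and carry no test. Each of 4 two-colour arrays compared a pair of early blastocyst pools from 1 Holstein heifer, with oocytes taken at a donor age of 11 months in one pool and 14 months in the other. All oocytes came from FSH-stimulated ovaries, with 6 injections of 30 mg and an aspiration 36 hours before the hormones. The first collection of the study was at a donor age of 8 months. All embryos were fertilized with adult bull semen, cultured in vitro and collected 168 hours after fertilization. RNA was amplified in 2 rounds of 6 hours each. The 11-month pool was labelled with Cy5 in replicates 1 and 2 and with Cy3 in replicates 3 and 4, and every replicate was another heifer. Donor age cannot be told apart from the time of collection, how many embryos a pool held is not stated in the labels, and in pools fewer cells of a type and less RNA per cell cannot be told apart. The series title gives embryo quality around puberty of the donor as the question.

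MHC class I molecules show peptides from inside the cell to T cells and natural killer cells. Proteasomes cut proteins to peptides, the TAP1 and TAP2 transporter carries these into the endoplasmic reticulum, and tapasin holds an empty class I heavy chain at the transporter until a fitting peptide is bound. B2M is the light chain without which most heavy chains do not reach the cell surface, and interferon gamma induces the pathway in many cell types. In cattle, class I expression by trophoblast is known to be low early in pregnancy, when the embryo meets the immune system of the mother.

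Every member gene but PSMB8 had a probe above background in all 8 pools, but most probes were dim. Of all bovine probes, 36447 passed a filter on mean signal, set from the negative control spots, and all 10 member probes were among them. Across the 8 pools, 63.6% to 71.6% of bovine probes lay above the limit set by the negative controls of their own channel. Of the 80 values of the members (10 probes in 8 pools), 73 lay above that limit. PSMB8 accounted for 4 of the 7 values below it, the dimmer B2M probe for 2 and the dimmer TAP2 probe for 1. The arrays resembled each other by dye orientation: over all tested probes Pearson's r of the ratios was 0.56 for replicates 1 and 2 and 0.31 for replicates 3 and 4, against -0.17 to 0.12 between arrays of opposite orientation, and probes are not independent replicates. The 4 arrays limit the precision of every value.

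The brighter B2M probe had a higher signal in the 11-month pool of every heifer, at a mean log2 ratio of 0.83 ± 0.44 (SD, n = 4), or 1.78-fold, and no other member probe was higher on all 4 arrays. Ratios are log2 of 11 over 14 months from the authors' deposited matrix, so that a value above 0 means more signal at the younger age. The dimmer B2M probe, TAPBP and the brighter PSMB10 probe were lower at 11 months on all 4 arrays, and the remaining 6 probes had both signs. Over all tested probes, 8.84% were higher and 7.82% lower on all 4 arrays. Of the 10 member probes, 5 had a mean above 0 and 5 below, with a median of -0.05, against a median of 0.02 over all tested probes. In limma's fit across all tested probes 0 members and 0% of probes passed a Benjamini-Hochberg adjusted p of 0.05, with 3352 probes at an unadjusted p under 0.05, and 1637 without replicate 2. At that unadjusted threshold there was 1 member higher, the brighter B2M probe, and 1 lower, the brighter PSMB10 probe, beside 4.09% of all probes higher and 5.11% lower. With a term for the dye orientation in the fit, 1 of the 10, again the brighter B2M probe, passed the adjusted threshold, beside 1.02% of all probes. Since this contrast chose the gene, nothing is read from these counts.

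**Figure D1:**
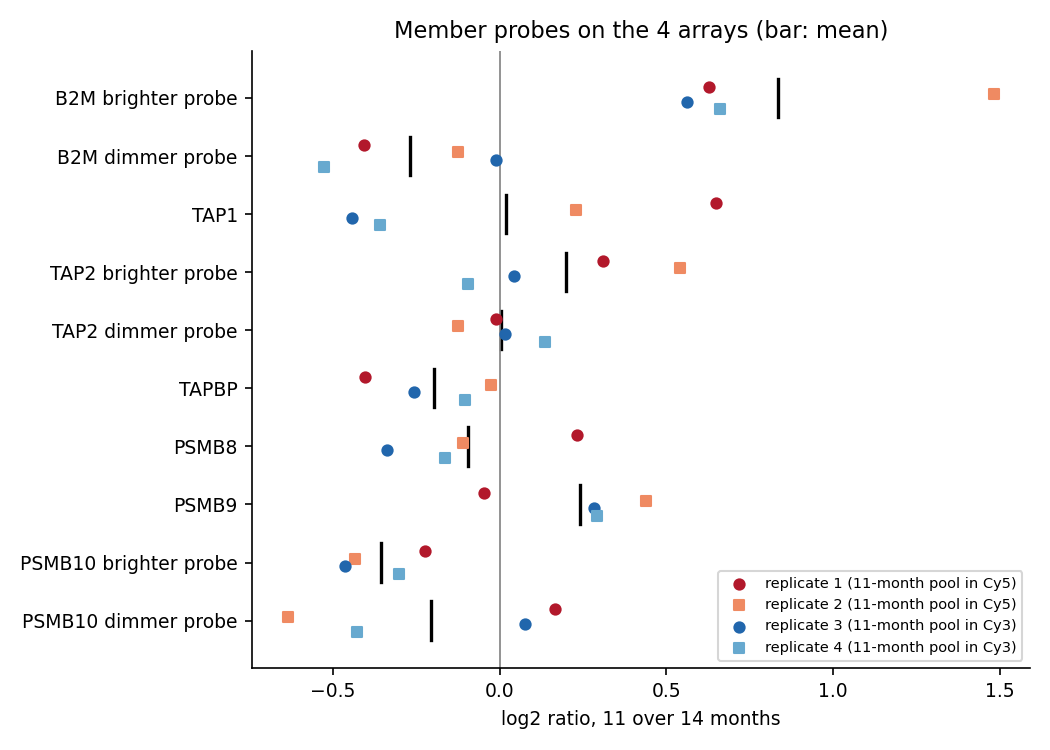
Log2 ratio of 11 over 14 months (x axis) of the 10 member probes (y axis) on each of the 4 arrays, coloured by replicate and dye orientation, with the mean as a black bar. The 4 points of the brighter B2M probe lie at 0.56 or above, and the points of TAP1 lie above 0 in replicates 1 and 2 and below 0 in replicates 3 and 4.

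The signal of the brighter B2M probe, EMBV3_03050, was far above background in all 8 pools. As scanned and before any normalization, its median spot signal at 11 months was 8420 and 5322 in Cy5 in replicates 1 and 2, and 7412 and 5904 in Cy3 in replicates 3 and 4. At 14 months it was 7043 and 3031 in Cy3 in replicates 1 and 2, and 3235 and 2683 in Cy5 in replicates 3 and 4. The local background of these spots was 19 to 49. The whole Cy3 channel was the brighter one on every array. In replicates 3 and 4 it held the 11-month pool, with a median over all probes of 184.5 against 59 and of 185 against 80. In replicates 1 and 2 it held the 14-month pool, at 153 against 115 and 96 against 73. The raw signals therefore do not compare the ages, and only the normalized ratios do.

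The deposited log2 ratios of this probe were 0.63, 1.48, 0.56 and 0.66 in replicates 1 to 4. Replicate 2 lay apart from the other 3 heifers, which were close to each other. Without replicate 2 the mean ratio was 0.62. On each array, few of all tested probes had a higher ratio: 4.04% in replicate 1, 0.0988% in replicate 2, 5.15% in replicate 3 and 1.85% in replicate 4. A high rank follows from the choice of the gene with its high ratio in view and is a description. After normalization across channels, the log2 signal was 13.06, 12.76, 12.63 and 12.26 at 11 months and 12.55, 11.29, 12.02 and 11.65 at 14 months. These levels overlapped between the ages, since the 14-month pool of replicate 1 lay above the 11-month pool of replicate 4, while within each heifer the order was the same. In replicate 2, the heifer with the largest ratio, the 14-month pool had the lowest of the 8 values. The raw signals normalized anew, by normexp background correction and loess, gave a ratio of 0.80 ± 0.45.

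The other B2M probe, EMBV3_41443, ran the other way. Its deposited log2 ratios were -0.41, -0.13, -0.01 and -0.53 in replicates 1 to 4, a mean of -0.27 ± 0.24. The ratio was thus below 0 in every heifer, although in replicate 3 by little. Its raw signals, 72 to 183 at 11 months and 59 to 152 at 14 months, were close to those of the negative controls, whose median was 43 to 128 in the 8 pools. At 11 months it was above the background limit in replicates 2 and 3 and not in replicates 1 and 4, and at 14 months it was above the limit in all 4 pools. In replicates 1 and 4, the arrays with its most negative ratios, the 11-month signal was therefore not well above background.

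**Figure D2:**
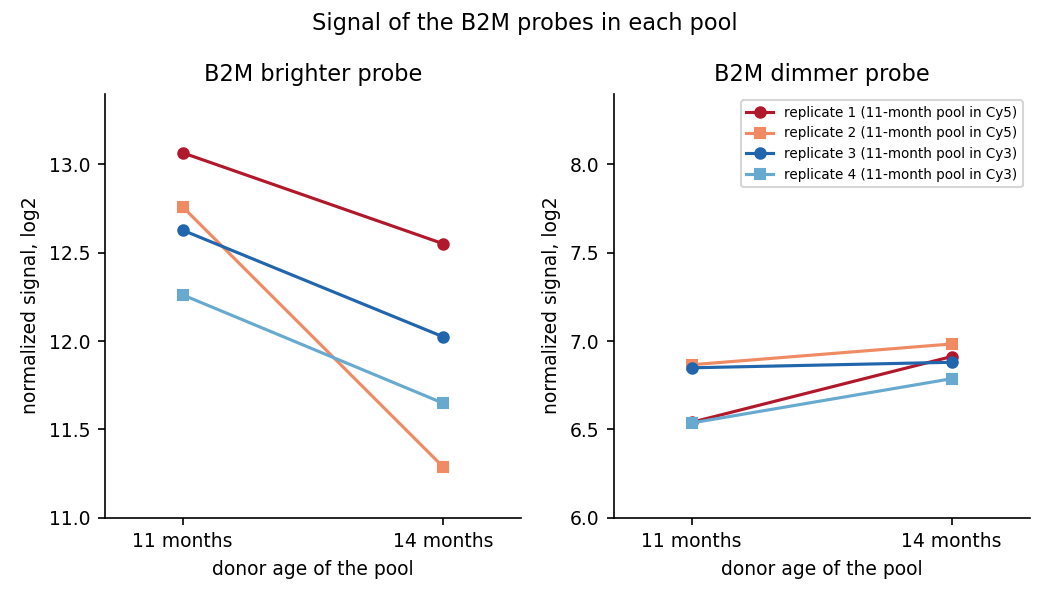
Normalized log2 signal (y axis) of the brighter (left) and dimmer (right) B2M probe in the 11-month and 14-month pools (x axis), with a line for each of the 4 heifers. Both panels span 2.4 log2 units. The brighter probe is lower at 14 months in all 4 heifers, and the dimmer probe is slightly higher at 14 months in all 4.

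On the same array, the ratio of the brighter B2M probe exceeded that of the dimmer by 1.04, 1.61, 0.57 and 1.19 in replicates 1 to 4, or 1.10 ± 0.43. With raw signals normalized anew the difference was 0.99 ± 0.41, so that a gap remained in a table made without the authors' normalization. Of 3374 genes with at least 2 tested probes, 4 had a larger difference between the mean ratios of their brightest and second probes, namely SLC35G1, TBX2, SEPTIN2 and LRRC10B, which were named after their values were seen. The place of B2M in this order is a description, since its brighter probe was part of the choice and its dimmer probe was below the background limit in 2 of the 4 11-month pools. The median size of this difference was 0.18, and 10% of genes were above 0.46. Opposite signs of the mean ratios, as in B2M, were common and occurred in 47.0% of these genes. The files give no probe sequences, so that which part of the B2M transcript each probe reads is not described here. Brightness was used only to name the probes, since the signals of different probes do not compare amounts of RNA.

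**Figure D3:**
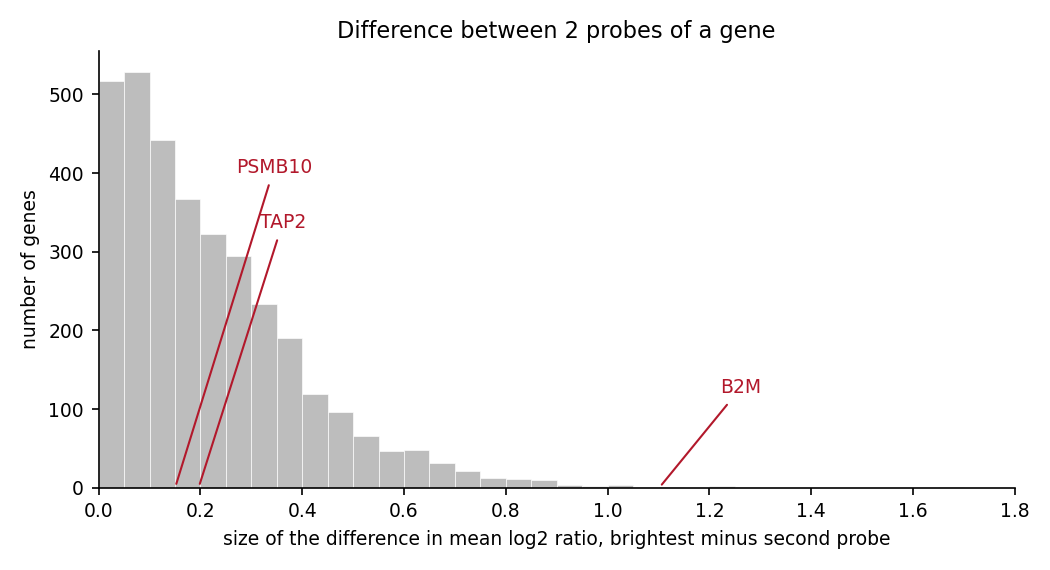
Number of genes (y axis) by the size of the difference in mean log2 ratio between the brightest and the second tested probe (x axis), over 3374 genes. B2M at 1.10 lies in the far right tail, while TAP2 at 0.20 and PSMB10 at 0.15 lie near the median of 0.18.

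The transporter subunits had both signs among the 4 heifers. TAP1, which with TAP2 forms the pore and binds ATP, had log2 ratios of 0.65, 0.23, -0.44 and -0.36 in replicates 1 to 4, a mean of 0.02 ± 0.52. It was higher at 11 months in both heifers with that pool in Cy5 and lower in both with that pool in Cy3. The brighter TAP2 probe, EMBV3_13369, was at 0.31, 0.54, 0.04 and -0.09, a mean of 0.20 ± 0.28. Its larger values were those of replicates 1 and 2, and the means within each orientation were 0.43 and -0.03. The dimmer TAP2 probe, EMBV3_03299, was at -0.01, -0.12, 0.02 and 0.14, a mean of 0.00 ± 0.11. The difference between the TAP2 probes, 0.20 in their means, was exceeded in 45.6% of the genes with several probes.

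TAPBP, tapasin, was lower at 11 months in each heifer, with log2 ratios of -0.41, -0.03, -0.26 and -0.10, a mean of -0.20 ± 0.17. In replicate 2 the ratio was close to 0. Its raw signal was 111 to 329 at 11 months and 150 to 438 at 14 months, and it was above the background limit in all 8 pools. The normalized levels of the 2 ages overlapped, at 7.76 ± 0.25 and 7.97 ± 0.36.

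The 3 catalytic subunits of the immunoproteasome, which replace their constitutive counterparts and shift cleavage towards peptides that fit class I molecules, did not share a direction. PSMB8 had log2 ratios of 0.23, -0.11, -0.34 and -0.17 in replicates 1 to 4, a mean of -0.10 ± 0.24. Its signal was 62 to 135 at 11 months and 51 to 115 at 14 months and was above the limit in 2 of the 4 pools at each age, so that its ratios are uncertain. PSMB9 was at -0.05, 0.44, 0.28 and 0.29, a mean of 0.24 ± 0.21. It was higher at 11 months in 3 heifers and near 0 in replicate 1, and it was above the limit in all 8 pools.

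PSMB10 had 2 probes with negative means. The brighter, EMBV3_32014, was at -0.22, -0.44, -0.46 and -0.30, a mean of -0.36 ± 0.11, or 1.28-fold lower at 11 months. All 4 heifers were lower at 11 months, and the SD was below the median of 0.27 over all tested probes. The means within each orientation were -0.33 and -0.38. The dimmer probe, EMBV3_10454, was at 0.17, -0.64, 0.08 and -0.43, a mean of -0.21 ± 0.39. It was negative in replicates 2 and 4 and positive in replicates 1 and 3, so that it does not share the even pattern of the brighter probe. Normalized levels of the brighter probe were 7.49, 7.27, 7.51 and 7.80 at 11 months and 7.73, 7.77, 7.95 and 8.05 at 14 months. These ranges overlapped, since the 11-month pool of replicate 4 lay above the 14-month pools of replicates 1 and 2.

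In the reference annotation PSMB8, TAP1 and PSMB9 follow each other with 0 genes between them, and TAP2 lies 2 genes away from PSMB8. In human cells TAP1 and PSMB9 are transcribed from a shared promoter region. Here TAP1 and PSMB9 had opposite signs in replicates 1, 3 and 4, and both were above 0 in replicate 2. The sign of TAP1 followed the dye orientation, and PSMB9 was near 0 in replicate 1, at -0.05. No difference in regulation is read from these signs. TAP1 and PSMB8 had the same sign in replicates 1, 3 and 4. PSMB8 was below the background limit in both pools of replicate 4 and in 1 pool each of replicates 1 and 3.

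The dye orientation is a contrast that the choice of the genes did not use, and none of the 10 member probes passed it. In limma's fit with an orientation term 2.38% of all tested probes passed an adjusted p of 0.05 for that term. Of the 10 member probes 0 did. At an unadjusted p under 0.05 there was 1 member, TAP1, beside 8160 of all 36447 tested probes. The probes past the adjusted threshold were 869, and 81 without replicate 2 or 96 without replicate 1. The term, given as log2 Cy5 over Cy3, holds a dye effect together with any difference between the heifers of replicates 1 and 2 and those of replicates 3 and 4. It was largest for TAP1, at 0.42 ± 0.11 (SE), with limma's adjusted p of 0.0825. For the brighter TAP2 probe it was 0.23 ± 0.11 with limma's adjusted p of 0.249, and for the brighter B2M probe 0.22 ± 0.14 with limma's adjusted p of 0.387. For the brighter PSMB10 probe it was 0.03 ± 0.11 with limma's adjusted p of 0.907. For B2M the means within the orientations had the same sign, 1.06 with the 11-month pool in Cy5 and 0.61 with it in Cy3.

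The genes with ratios most like those of the brighter B2M probe, by the root mean square difference over the 4 arrays among 13519 genes taken by their brightest probe, were PUM2, CTNNB1, NUCB2, ITPK1 and HOXC4. PUM2, an RNA-binding repressor, had ratios of 0.48, 1.37, 0.65 and 0.39 and differed by 0.17. CTNNB1, the beta-catenin of cell junctions and WNT signalling, had ratios of 0.61, 1.17, 0.59 and 0.34 and differed by 0.22. NUCB2, a calcium-binding protein, had ratios of 0.63, 1.48, 0.93 and 0.34. A like order of the replicates follows from this choice and is no result. The inositol kinase ITPK1 and the homeobox gene HOXC4 differed by 0.30 each. A second probe of PUM2 was at 0.09 ± 0.21.

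The class I heavy chains, the partners of B2M at the cell surface, had mixed signs. They are given because of this role and not by rank, and their genes are near-identical to each other, so that a probe can read several of them. The tested probes were 6 for 4 symbols, all above the background limit in all pools. The brightest BOLA probe had log2 ratios of 1.03, 0.05, -0.07 and -0.32, and the other BOLA probes had means of -0.52 ± 0.43 and -0.17 ± 0.37. The positive mean of the brightest, 0.17 ± 0.59, rests on replicate 1. JSP.1 was at 0.30, -0.15, 0.22 and -0.18, and BOLA-N at 0.42, -0.04, 0.02 and -0.33. BOLA-NC1, a non-classical class I gene, was at 0.20, -0.25, -0.64 and -0.62, a mean of -0.33 ± 0.39. In replicate 2, where the B2M ratio was largest, these 4 genes by their brightest probes lay between -0.25 and 0.05.

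Of 12 measured genes of heavy chains and class I-like proteins, 3 were lower and 0 higher at 11 months at the unadjusted threshold, and the median was -0.05; over all 13519 genes, 5.13% were higher and 4.21% lower. None passed the adjusted threshold. The 3 were MR1, which presents vitamin B metabolites with B2M, LOC512672 and ULBP27, of a family whose human members bind the receptor NKG2D without B2M. MR1 was at -0.47, -0.48, -0.51 and -0.59, so that the 4 heifers were close to each other, and it was above the background limit in 3 of 4 pools at 11 months and in all 4 at 14. LOC512672 was at -0.40 ± 0.31 and above the limit in 1 pool at 11 months and 3 at 14. ULBP27 was at -0.35 ± 0.26 and above the limit in 3 pools at 11 months and 4 at 14. FCGRT, which with B2M forms the neonatal Fc receptor and is named here for that role, was at 0.30 ± 0.28. Without replicate 4 there was 1 lower and 1 higher, beside 5.47% lower and 5.77% higher over all genes. Without replicate 2 or 3 there were 2 lower, where 1.91% and 3.71% of all genes were lower.

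**Figure D4:**
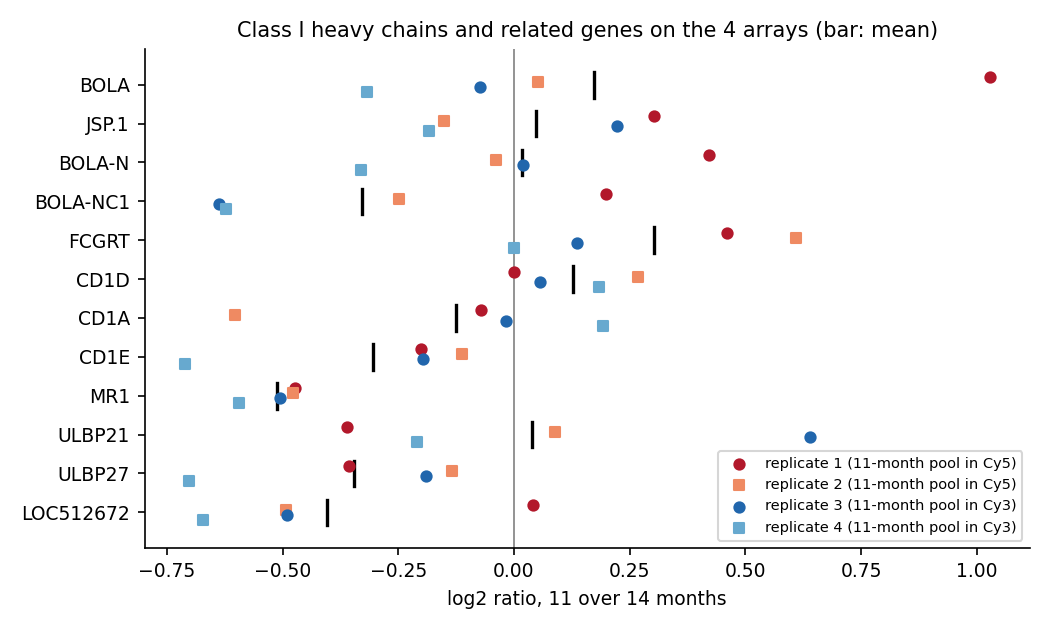
Log2 ratio of 11 over 14 months (x axis) on each of the 4 arrays for the 12 measured class I heavy chains and related genes (y axis), by the brightest probe of each, with the mean as a black bar. The points of MR1 cluster between -0.59 and -0.47, while those of BOLA span -0.32 to 1.03.

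Of 17 genes of the loading complex, its chaperones and entry into the endoplasmic reticulum, 4 were higher and 0 lower at the unadjusted threshold, and 15 had a mean above 0. Over all 13519 genes, 5.13% were higher, 4.21% lower, and 7292 had a mean above 0. The list's median was 0.13, against 0.02 over all genes, and 0 passed the adjusted threshold. HSPA5, the main chaperone of the endoplasmic reticulum, was at 0.34, 0.71, 0.62 and 0.13. PDIA6, a disulfide isomerase, was at 1.33, 1.44, 0.20 and 0.01, and HSP90B1 at 0.49, 0.84, 0.76 and -0.11. PDIA6 was high in replicates 1 and 2 and near 0 in replicates 3 and 4, and its orientation term passed, at 0.64 with limma's adjusted p of 0.0244. The signal peptidase subunit SPCS3 was the other of the 4. The count higher was 0 without replicate 2, where 2.09% of all genes were higher. Without replicate 1 there were 2 higher and 1 lower, beside 3.82% and 3.45% of all genes. Without replicate 3 there were 3 higher and 1 lower, beside 4.76% and 3.71%. Without replicate 4 there were 3 higher and 0 lower, beside 5.77% and 5.47%. The 2 proteins that join tapasin at the transporter, calreticulin (CALR) at 0.13 ± 0.29 and PDIA3 at 0.14 ± 0.26, had both signs among heifers.

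Of 23 genes of peptide supply 1 was higher and 0 lower at the unadjusted threshold, beside 5.13% higher and 4.21% lower over all 13519 genes. The median of the list was 0.10. The gene that was higher was PSMB7, the constitutive subunit that PSMB10 replaces, at 0.16, 0.29, 0.50 and 0.29, a mean of 0.31 ± 0.14. PSMB7 was thus above 0 in each heifer, while the brighter PSMB10 probe was below 0 in each. Further probes of PSMB7 were at 0.09 ± 0.55 and 0.06 ± 0.38. The count higher was 0 without replicate 2 or 3, where 2.09% and 4.76% of all genes were higher. PSMG1, which assembles proteasomes, was at -0.29 ± 0.23, and the peptidase TPP2 at 0.24 ± 0.13. PSMB5 and PSMB6, the constitutive counterparts of PSMB8 and PSMB9, were named for that role and were at 0.16 ± 0.34 and 0.16 ± 0.12.

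Of 30 regulators of class I genes, 0 were higher and 5 lower at the unadjusted threshold, beside 5.13% higher and 4.21% lower over all genes. The median of these regulators was -0.10, and 0 of them passed the adjusted threshold. The 3 with the smallest p were IRF9, which carries interferon signals to the nucleus, at -0.41 ± 0.18, the NF-kappa-B subunit RELA at -0.35 ± 0.18 and the interferon gamma receptor chain IFNGR1 at -0.31 ± 0.10. All 3 were below 0 in all 4 heifers. IRF9 was dim, at a raw signal of 84 to 157 at 11 months and 64 to 189 at 14 months. It was above the background limit in 3 pools at 11 months and 4 at 14. The count lower was 2 without replicate 1, 2 or 3, where 3.45%, 1.91% and 3.71% of all genes were lower. Without replicate 4 there were 3 lower and 1 higher, beside 5.47% and 5.77% of all genes. NLRC5, the transactivator of class I genes, B2M among them, was named for that role and was at -0.02, 0.27, 0.00 and 0.19, a mean of 0.11 ± 0.14. IRF1, likewise named for its role as an activator of class I genes, was at -0.29, -0.18, -0.35 and -0.24, and so below 0 in each heifer.

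Of 11 genes of class II presentation, the pathway of professional antigen-presenting cells, 1 was higher and 0 lower at the unadjusted threshold. Over all 13519 genes, 5.13% were higher and 4.21% lower. The median of the list was 0.06. BOLA-DYB was at 0.44 ± 0.34 and the protease CTSS at 0.24 ± 0.18, with a second probe of CTSS at -0.28 ± 0.32. BOLA-DMA, at -0.22 ± 0.13, was not well above background in any pool at 11 months and above it in 1 at 14 months. The BOLA-DYB call was lost without replicate 3 or 4, where the count was 0 and 4.76% and 5.77% of all genes were higher. CD74, the invariant chain, was above the limit in 1 of 4 pools at each age.

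**Figure D5:**
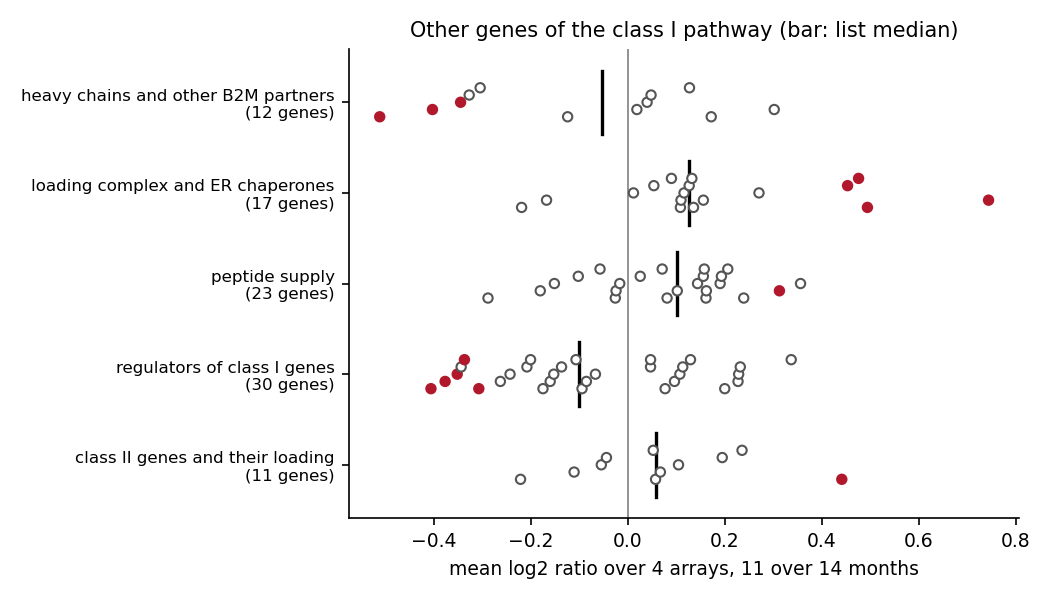
Mean log2 ratio of 11 over 14 months over 4 arrays (x axis) for each measured gene of 5 lists of the class I and class II pathways (y axis), with genes at an unadjusted p under 0.05 filled in red and the list median as a black bar. The 4 red points of the chaperones lie above 0 and the 5 red points of the regulators lie below 0.

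Markers of leukocytes, cells rich in B2M and immunoproteasome, gave no call between the ages. Of 14 measured markers 0 were higher or lower at the unadjusted threshold, beside 5.13% higher and 4.21% lower over all genes. The median ratio was 0.01. Above the background limit were 7 of these markers in all 11-month pools and 5 in all 14-month pools. The brightest marker, CD48, which made up much of the summed signal, was at -0.27, 0.18, 0.54 and -0.05. The list's median was 0.06, 0.05, 0.12 and -0.06 in replicates 1 to 4. PTPRC, the common leukocyte antigen named for that role, was at 0.27, 0.85, 0.37 and -0.37 and above the limit in 4 pools at 11 months and 3 at 14. The summed normalized signal of the 14 was 3992 to 6358 at 11 months and 3315 to 5582 at 14 months, higher at 11 months in replicates 2 and 3 and lower in replicates 1 and 4. The part of such cells in the B2M ratio was not tested. Of 12 cumulus and granulosa markers 1 was lower, VCAN, which was not well above background in any 11-month pool, with a median ratio of 0.00 and summed signals of 1963 to 2595 at 11 months and 1905 to 2285 at 14 months.

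Markers of the labelled stage were detected. Of 15 trophectoderm markers, 13 were above the limit in all 11-month pools and 14 in all 14-month pools, and of 10 markers of the inner cell mass 9 and 8 were. Of all 13519 genes, 9827 were above the limit in all 11-month pools and 9768 in all 14-month pools, so that detection by itself sets these lists little apart. At the unadjusted threshold 5.13% of all genes were higher and 4.21% lower. Genes called there, named for their call, were AQP3 in the trophectoderm list, higher at 0.60 ± 0.33, and NANOG and SPP1 in the inner cell mass list. NANOG was higher at 1.12 ± 0.37 and SPP1 lower at -0.48 ± 0.19. The median ratios of these lists were 0.13 and 0.00. The summed trophectoderm signal, to which the keratins contributed much, was higher at 11 months in replicates 1 and 2 and lower in replicates 3 and 4, while the list's median was 0.32, 0.15, 0.06 and -0.10. Its brightest gene, KRT8, was at 1.42, 0.72, -1.22 and -1.06, with an orientation term of 1.11 and limma's adjusted p of 0.00842. GATA2 passed for orientation too, at 0.68 with limma's adjusted p of 0.041. The part of the trophectoderm share in the B2M ratio was not tested. Of 6 primitive endoderm markers 0 were called in either direction, with a median of -0.09.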

How the data were processed

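Per the file headers, the deposited scanner files hold the intensity of each spot and its local background in both channels, not corrected. The deposited series matrix holds the authors' normalized log2 ratios; their method is not stated in the labels or headers. Compared with scanner values oriented by the labelled dyes, each column ran 11 over 14 months, correlated at 0.990 to 0.995 with background-subtracted loess ratios and had slopes of 0.891 to 1.08, hence base 2; column medians were 0.00853, 0.00336, 0.00104 and 0.0234. Background correction and centring stay unknown. The matrix was the main source of ratios, and scanner values an alternative. Exact zeros (7 to 20 tested probes an array) touched no member.

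Levels came from median signals corrected by normexp (offset 50), loess within arrays and Aquantile between arrays. Probes were tested where mean log2 intensity exceeded a limit from 153 negative control spots (their mean plus 2 SD); 7347 did not; the same limit per channel gave detection. Ratios were fitted in R 4.3.3 with limma 3.58.1 (lmFit, eBayes), two-sided, with Benjamini-Hochberg adjustment over 36447 probes. The fits were also run on simulated ratios with independent noise. The simulation of the age fit held no dye orientation effect, so that it does not check that fit under the orientation pattern of these arrays. Exact sign-flip tests of 4 pairs cannot give p below 0.125. Plots used Python 3.11.15 and matplotlib 3.10.9.

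Symbols came from GEO's platform annotation, which names 21790 probes with 1 gene each, 0 with several and 22004 with none; 1524 older symbols were updated through the ARS-UCD2.0 table. A gene of a list was read by its brightest tested probe. Named genes were all member probes, in each pathway list the 3 genes of smallest p, the 5 genes nearest to B2M and the brightest genes of marker lists; others are marked in the text. Members and lists were chosen with earlier results of these data known. Alternatives changed the source, background correction, centring, foreground summary, filter, dye term and replicates.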

Additional observations from a re-analysis of the deposited data

Results flagged for a closer look

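Of 30 sets of 4 values (ratios and levels of the 10 member probes), 1 had a value far from the others by Dixon's test, and chance gives about 1 in 20. It was the ratio of the brighter B2M probe, at 1.48 in replicate 2 against 0.56 to 0.66 in the other heifers.

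TAP1 had opposite signs in the dye orientations on all 4 arrays, with an orientation term of 0.42 that did not pass limma's adjusted threshold. The dimmer TAP2 probe did so too, with a term of -0.071 and ratios no larger than 0.14 in size.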

How the results depend on the processing

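The ratio of the brighter B2M probe stayed positive under 9 alternatives of processing or with 1 replicate left out, at 0.62 to 0.92. It was 1.06 in replicates 1 and 2 alone and 0.61 in replicates 3 and 4 alone. Under the same 9 alternatives the ratio of the dimmer B2M probe stayed negative, at -0.35 to -0.08. The brighter PSMB10 probe stayed at -0.41 to -0.28 and TAPBP at -0.26 to -0.09. Both B2M probes, the brighter PSMB10 probe and TAPBP had 1 sign on all 4 arrays. Leaving out 1 replicate could therefore not change the sign of their means. The means of TAP1, PSMB8 and the dimmer TAP2 probe changed sign under some alternatives. That of the brighter TAP2 probe, 0.20, was -0.03 in replicates 3 and 4 alone. The difference between the B2M probes was 0.80, its lowest, with mean foreground signals and 0.93 to 1.28 without 1 replicate. The median over member probes, -0.05, was -0.16 to -0.0073 without 1 replicate and -0.18 in replicates 3 and 4 alone. For age, 0 probes passed in all alternatives but 3: 373 with a dye term, 2624 in replicates 1 and 2 alone and 1 in replicates 3 and 4 alone, where age and dye cannot be told apart. At an unadjusted p under 0.05 the 3352 probes became 2050 with median centring, 6025 with a dye term, 1637 without replicate 2, and 8520 and 5477 within the 2 orientations. The 14 pathway genes at that threshold, in lists of 12, 17, 23, 30 and 11, became 25 with a dye term and 26 in replicates 1 and 2 alone. They were 5 without replicate 2, 8 without replicate 3 and 10 without replicate 1 or 4. Over all 36447 tested probes the counts were 6025 with a dye term and 8520 in replicates 1 and 2 alone. Without replicates 1, 2, 3 and 4 they were 2896, 1637, 3022 and 3851. The list counts thus moved in the same direction as those over all probes, except without replicate 4. For dye orientation, 869 probes became 513 with the scanner values normalized anew, 1926 with median centring and 81 to 615 without 1 replicate, with 81 without replicate 2 and 96 without replicate 1. Above background were 73 member values, or 64 to 66 under the other limits. The dim probes of B2M, TAP2 and PSMB8 limit what their ratios can show.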
